A study of Mus musculus with 15 samples.

Results

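The translation landscape of wild-type (WT) mouse embryonic stem cells was read from the 3 WT libraries among the 15 ribosome profiling libraries of the series, chosen by their genotype and fraction labels. Ribosome profiling sequences the short mRNA fragments that ribosomes protect from nuclease, here called footprints, so that the footprints of a transcript count the ribosomes caught on its coding sequence (CDS). The study asked whether ribosomes carrying Rps27 differ in the mRNAs they translate from ribosomes carrying its paralog Rps27l. It profiled the total ribosomes of 9 clones of the E14Tg2a.4 line, and the FLAG-immunoprecipitated ribosomes of 6 of them. The WT group is the untagged control, 3 clones (5a1, 5a2 and 5a3, here clones 1, 2 and 3) whose libraries hold all ribosomes of the lysate. The 2 tagged groups, Rps27-FLAG and Rps27l-FLAG, each comprise 3 clones that carry the tag on the endogenous gene. All clones were grown in serum with leukemia inhibitory factor on gelatin without feeder cells, and all were treated with cycloheximide, which stalls elongating ribosomes, before harvest. They derive from 1 parental line, so that the spread between clones says nothing of other embryonic stem cell lines.

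Embryonic stem cells divide rapidly and hold the transcription factor circuit of the early epiblast, built around Oct4 (encoded by Pou5f1), Sox2 and Nanog. Ribosomes are a costly product of growing cells, and many mRNAs for ribosomal proteins (RPs) and elongation factors start with a cytosine followed by a run of pyrimidines, the 5′ terminal oligopyrimidine (TOP) motif, through which growth signalling is known to regulate their translation. The number of footprints on a transcript depends on its mRNA level, on how often ribosomes load and on how long they take, and these cannot be told apart here because no mRNA levels were analysed.

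The WT libraries held 7136473, 7661381 and 6930760 counts in clones 1, 2 and 3. Levels are given as CPM (counts of the transcript per 1000000 counts on nuclear-encoded transcripts), or as CPM per kilobase of counted CDS, here called the density, which is the scale used wherever different genes are compared. A count of 0 allowed a level of up to 0.423, 0.394 and 0.436 CPM in clones 1, 2 and 3 at 3 counts per library, a limit that covers counting error only. Clone 1 stood apart from clones 2 and 3, as described below. Many values are therefore given for each clone, and every WT mean with an SD includes clone 1.

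Translation was spread over many transcripts, with a similar distribution in each clone. Of 21727 transcripts in the table, 14799, 14837 and 14780 had at least 1 count in clones 1, 2 and 3, and 5622 had none in any of the 3. A level above 2 CPM was reached in all 3 clones by 10334 transcripts. The 50% of the footprints that lay on the leading transcripts were held by 801, 783 and 755 transcripts, and 90% were held by 4503, 4411 and 4320. The 10 leading transcripts held 3.22%, 3.46% and 3.64% of the footprints and the 100 leading ones 16.1%, 16.2% and 16.8%, and 94 transcripts were among the leading 100 in every clone. The median density over the transcripts past 2 CPM was 24 CPM per kb, with quartiles at 8.24 and 71.0.

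The 4 transcripts with the most footprints were 3 cytosolic chaperones and an elongation factor. Hsp90aa1, the inducible cytosolic Hsp90, led with 4609, 5036 and 5386 CPM in clones 1, 2 and 3, which was 0.501% of all footprints on average. Hspa8, the constitutive Hsp70, followed with 4527, 4927 and 5257 CPM, and Hsp90ab1, the constitutive Hsp90, with 3647, 4192 and 4388. These chaperones were each lowest in clone 1 and highest in clone 3. Eef2, the factor that translocates the ribosome along the mRNA, varied little, with 4035, 4069 and 3989 CPM. Fn1, which encodes the extracellular matrix protein fibronectin, had 2498, 3516 and 3698 CPM, while Pkm, the pyruvate kinase of glycolysis, had 3204, 3023 and 3142. The other 14 of the leading 20 spanned mean levels from 1899 CPM for Slc2a3, a glucose transporter, to 2932 for Ncl, a nucleolar protein. They included Trim28, the corepressor that silences retroelements in these cells, at 2485 ± 202 CPM (SD, n = 3), Top2a, the topoisomerase of dividing cells, at 2150 ± 53.0, and the ubiquitin ligase Nedd4 at 2093 ± 41.2. The remainder were Atp5b, Rpl4, Hspd1, Eif4a1, Hnrnpu, Npm1, Ddb1, Rpl3 and Akap12.

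Counted per kilobase, short transcripts for RPs moved to the front. RPs were 2 of the 20 transcripts with the highest CPM but 14 of the 20 with the highest density, and 15 and 44 of the leading 100. The median CDS of the leading 20 was 2146.5 nt by CPM and 528 nt by density, and 4 transcripts stood in both lists (Hspa8, Hsp90aa1, Npm1 and Pkm). Hspa8 had the highest density, 2411, 2624 and 2799 CPM per kb in clones 1, 2 and 3. Npm1, a nucleolar chaperone of ribosome assembly, had 2414, 2463 and 2621, and Rpl38, of the large subunit, had 2355, 2435 and 2300. Rpl38 was below both Hspa8 and Npm1 in each clone, while the order of Hspa8 and Npm1 differed between clones. Prdx1, a peroxidase that removes hydrogen peroxide, followed Hsp90aa1 with 2180 ± 118 CPM per kb, and Mif, a short secreted cytokine, had 2116 ± 52.7. The 14 RPs in this list lay close together, from 1969 ± 20.3 CPM per kb for Rps16 to 2363 ± 67.7 for Rpl38. Among them Rps27a, made as a fusion with ubiquitin, had the widest spread, with 1887 CPM per kb in clone 1 against 2147 and 2129 in clones 2 and 3.

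**Figure D1:**
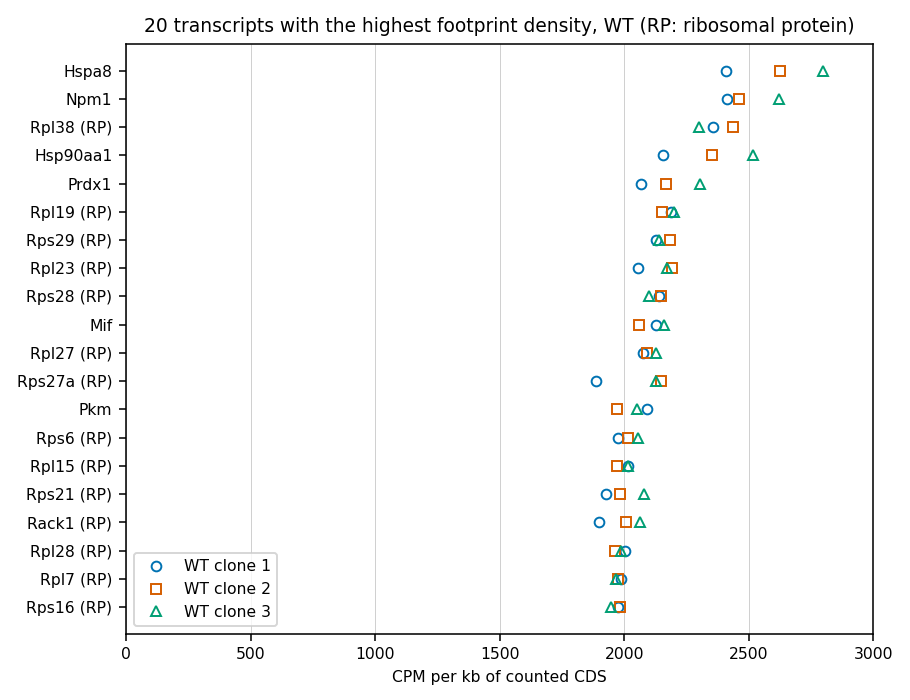
Density (CPM per kb of counted CDS, linear axis) of the 20 transcripts with the highest mean in WT, with 1 symbol for each clone and RP after the name of each ribosomal protein. Hspa8 and Npm1 have the highest means, and the 14 ribosomal proteins have means between 1969 and 2363 CPM per kb.

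The first bases of these densely occupied mRNAs were read from the RefSeq annotation of GRCm38.p6 in a window from 5 bases before the annotated start to 20 bases from it, because TOP mRNAs are defined there. Among the 20 densest transcripts, 6 (all RPs) had a C at the first annotated base followed by at least 4 bases that are each C or T. In the sequences below, this C and its run of C and T are in capitals. Prdx1 and Mif, which are not RPs, are shown beside them as transcripts of like density whose annotated start does not match. The RPs Rpl19, Rpl23, Rps28, Rpl27 and Rps16 of the same list had annotated starts too, none of which matched, and are not shown. A match therefore did not separate RPs from other transcripts of like density. Rps21 has another annotated start, at chr2:180257444-180257468 with its margins, which does not match either.
Rpl38 (chr11:114668575-114668599, plus strand): tcgttCTTTCCCCgttctcttcggt
Rps6 (chr4:86857348-86857372, minus strand): cgggcCTCTTTTTCgtgacgcctcc
Rpl15 (chr14:18270967-18270991, minus strand): gccttCTTCCTTTCCTCTggcggca
Rps21 (chr2:180257374-180257398, plus strand): ccgccCTCCTgcccaatagtgctgc
Rack1 (chr11:48800355-48800379, plus strand): tctttCTTTTTCTCCacagggtcgt
Rpl28 (chr7:4792960-4792984, plus strand): tgtctCTCTTTCCgtctccggccgc
Prdx1 (chr4:116685594-116685618, plus strand): ctgtcgggcgacctcttcctgcgtt
Mif (chr10:75860258-75860282, minus strand): gcggcagccggcttggggcggtact

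Counting a transcript once if any of its annotated starts matched, such a start was found in 6 of the 14 transcripts among the densest 20 that had a RefSeq start window (42.9%, or 6 of their 17 starts, 35.3%), in 8 of 75 of the densest 100 (10.7%) and in 244 of all 8222 matched transcripts (2.97%). The search read the transcribed strand only, and 823 of the 32851 start windows of the whole RefSeq table (2.51%) matched it. Among RPs 12 of 56 matched (21.4%), 6 of 33 of the large and 6 of 23 of the small subunit. Without RPs the densest 100 had 1 match in 43 (2.33%), which is near the share among all matched transcripts. Over the transcripts that are not RPs the median density was 22.6 CPM per kb for the 232 with such a start and 23.8 for the 7934 without. Annotated starts can lie several bases from the true one, so that a missing match says only that these letters are not at the annotated base.

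The 29 functional classes, 2015 listed genes, held 47.1 ± 0.358% of the footprints (SD, n = 3) and 50.6 ± 0.349% of the summed density. Proteins that make or serve the ribosome took the largest part. RPs, translation factors, cytosolic aminoacyl-tRNA synthetases and ribosome biogenesis factors together held 11.3%, 11.6% and 11.7% of the footprints in clones 1, 2 and 3 and 16.1%, 16.6% and 16.7% of the summed density. The RPs of both subunits held 4.29 ± 0.0677% of the footprints and 10.6 ± 0.204% of the density. The large subunit had 2.59 ± 0.0309% of the footprints and the small subunit 1.69 ± 0.0369%. The median density of the members past 2 CPM was 1401 CPM per kb for the large and 1547 for the small subunit, 58.4 and 64.5 times the median over all transcripts. Their leading transcripts by CPM were Rpl4, Rpl3 and Rpl6 with 1905 ± 54.0, 1729 ± 32.3 and 1798 ± 17.6 CPM per kb, and Rack1, Rps6 and Rps3a1 with 1991 ± 84, 2014 ± 39.5 and 1738 ± 42.9.

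Initiation factors held 1.82% of the footprints and were led by the RNA helicase Eif4a1 at 1824 ± 49.4 CPM per kb, ahead of Pabpc1, the poly(A)-binding protein, at 769 ± 40.5 and Eif3a at 410 ± 6.28. Elongation and termination factors held 1.14%, with Eef2, Eef1g and Eef1a1 at 1603 ± 15.8, 1432 ± 51.9 and 1422 ± 75.8 CPM per kb. The synthetases, which charge tRNAs, held 1.18%, and Eprs, Lars and Aars lay between 287 and 344 CPM per kb. Ribosome biogenesis factors held 3.11% and were led by Ncl and Npm1, while Mdn1, a giant ATPase of large subunit maturation, had many footprints but a density of 59.7 ± 5.01. Initiation factors were highest in clone 1 (1.85%, 1.82% and 1.80%), whereas the RPs of both subunits together were lowest there (4.21%, 4.32% and 4.33%).

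The density of an RP followed how much of its CDS a read can be placed on uniquely. The authors kept uniquely aligned reads, and many RPs have near-identical retrocopies or paralogs. For the 56 RPs in which at least 90% of the windows of the CDS were unique among the listed transcripts, the median density was 1737 CPM per kb, with quartiles at 1326 and 1968. For the 30 RPs below 90% the median was 90.7, with quartiles at 8.20 and 350. Over 1000 CPM per kb lay 43 of the former and 1 of the latter, under 100 lay 7 and 16. Rps27, Rps27rt and Rpl10, each with 0% unique windows, were at 0 in all 3 clones. So were Rpl13a with 70.7%, Rps12 with 100% and Rps4l, whose listed transcript has no annotated CDS in GENCODE M21, and low values were therefore not confined to RPs with shared windows. The footprint share of RPs given here leaves out reads that could not be placed uniquely. Only 416 of the 10331 transcripts ranked by density were below 90%.

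Rps27l, the paralog that the study compares with Rps27, had 149, 147 and 144 CPM in clones 1, 2 and 3, a density of 764 ± 11.1 CPM per kb (SD, n = 3). Its level was lower than that of the median RP with unique windows and the clones did not separate. The transcript listed for Rps27 had 0 counts in each, and the Rps27 level in these cells could not be read from the table. Tmod3, a tropomodulin that caps actin filaments, had 99.1 CPM in clone 1 against 72.7 and 73.0 in clones 2 and 3.

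The density of subunits of some well-known complexes was compared within each complex. The rings of TRiC, the chaperonin that folds actin and tubulin, are built from single copies of each subunit, and 7 of its subunits lay between 698 CPM per kb (Cct2) and 800 (Cct4), a ratio of 1.15. The eighth, Cct6a, was at 0, and its listed transcript has no annotated CDS in GENCODE M21. The 7 alpha subunits of the 20S proteasome core lay between 377 (Psma1) and 621 (Psma6) CPM per kb. The beta subunits with at least 90% unique windows lay between 382 (Psmb7) and 575 (Psmb1), while Psmb3, at 108 CPM per kb, had 51.9% unique windows. The 6 ATPases of the 19S base lay between 248 (Psmc2) and 347 (Psmc6), below the core subunits with at least 90% unique windows but above Psmb3. In the MCM helicase, which opens DNA for replication, the 6 subunits lay between 320 (Mcm2) and 468 (Mcm7). The cohesin pair Smc1a and Smc3 had 101 and 161 CPM per kb. The range of RPs was far wider even where 100% of the windows were unique. It ran from 0 for Rps12, 16.5 for Rps7 and 117 for Rpl31 up to 2363 for Rpl38. Of the 56 RPs with at least 90% unique windows, however, 43 lay over 1000 CPM per kb and 7 under 100. Their quartiles were 1326 and 1968. Uniqueness was scored against the listed transcripts only, and the cause of the low values was not tested. These complexes were picked after class values had been seen, and the ranges are descriptions.

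Outside translation, RNA processing and protein folding took the most footprints. Spliceosome, hnRNP and SR proteins held 4.69 ± 0.0705%, led by Hnrnpu at 894 ± 32.3 CPM per kb. Chaperones other than TRiC held 3.80%, 3.83% and 4.14% in clones 1, 2 and 3, led by the Hsp90 and Hsc70 transcripts above, and TRiC held 0.820%. Chromatin remodelling and modification held 3.70% with a median density of 43.4 CPM per kb, and its leading members were Trim28, the H3K4 demethylase Kdm5b and the NuRD helicase Chd4. DNA replication held 1.68%, mitosis and chromosome structure 1.97% and nuclear pore and transport 1.96%. Among these, Ccnb1, the cyclin that drives entry into mitosis, had 621 ± 6.75 CPM per kb, Mcm7 had 468 ± 31.3, and the nuclear export and import receptors Xpo1, Kpnb1 and Ipo5 had 462, 468 and 430.

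Histones held 0.542% of the footprints but 1.53% of the summed density, led by the linker histones Hist1h1a, Hist1h1b and Hist1h1d at 1414, 981 and 764 CPM per kb. Of the 39 histone transcripts past 2 CPM, 26 had less than 90% unique windows, and reads that could not be placed uniquely are left out. The part of this in the histone share and order was not tested. Nuclear-encoded subunits of the respiratory chain and ATP synthase held 1.63% of footprints and 4.01%, 3.92% and 3.83% of density, with Atp5b at 1535 ± 61.0, Atp5a1 at 1072 ± 43.2 and Sdha at 317 ± 24.3 CPM per kb. Glycolysis held 1.02%, with Pkm, Pgk1 and Gpi1 at 2037, 1226 and 628 CPM per kb, and the tricarboxylic acid cycle 0.464%, with Mdh2 and Pdha1 at 579 ± 58.3 and 309 ± 4.17 CPM per kb. Mitochondrial RPs, led by Mrpl15 at 342 ± 5.34 CPM per kb, held 0.533%. Redox and iron genes held 0.575%, with Prdx1 far ahead of the superoxide dismutase Sod1 at 1243 ± 69.9 and the transferrin receptor Tfrc at 347 ± 11.4.

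Tdh, the threonine dehydrogenase that feeds mouse embryonic stem cells with glycine and acetyl-CoA, had 825 ± 131 CPM per kb (677, 869 and 928 in clones 1, 2 and 3). It was ahead of Psat1 of serine synthesis at 555 ± 32.2 and Mthfd1 of the folate cycle at 319 ± 16.6. Their class, serine, glycine and one-carbon metabolism, held 0.468%, 0.534% and 0.555% in clones 1, 2 and 3, the widest range of the 29 classes between clones (1.19 from highest to lowest). The other 28 classes had ratios under 1.1. Nucleotide synthesis held 0.895%, with the purine enzyme Paics at 824 ± 72.1 CPM per kb above Gart and the pyrimidine enzyme Cad at 386 ± 14.3 and 170 ± 0.954. Sterol and fatty acid synthesis held 0.776%, led by Fasn and Acly at 191 and 291 CPM per kb.

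The secretory pathway held 2.01% of footprints, led by Cltc (clathrin) at 372 ± 8.03, Vcp at 470 ± 9.64 and Stt3a at 293 ± 20.1 CPM per kb, and the cytoskeleton 2.05%, led by Tubb5 at 1430 ± 46.6, Actg1 at 1151 ± 207 and the dynein heavy chain Dync1h1 at 73.7 ± 8.48. Solute carriers held 1.47% with a median density of 15.8 CPM per kb, the single class below the median of all transcripts, in spite of the glucose transporters Slc2a3 and Slc2a1 at 1338 ± 160 and 764 ± 144 and the mitochondrial ADP/ATP carrier Slc25a5 at 1224 ± 45. Slc2a3 had 1523 CPM per kb in clone 1 against 1238 and 1253 in clones 2 and 3, and Slc2a1 had 930 against 699 and 664. Ubiquitin pathway genes held 1.49%, among them Nedd4 and Usp9x at 805 and 191 CPM per kb, and the proteasome 1.16%. The P-type ATPases, with the calcium pump Atp2a2 at 324 ± 17.6 CPM per kb, held 0.338%.

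**Figure D2:**
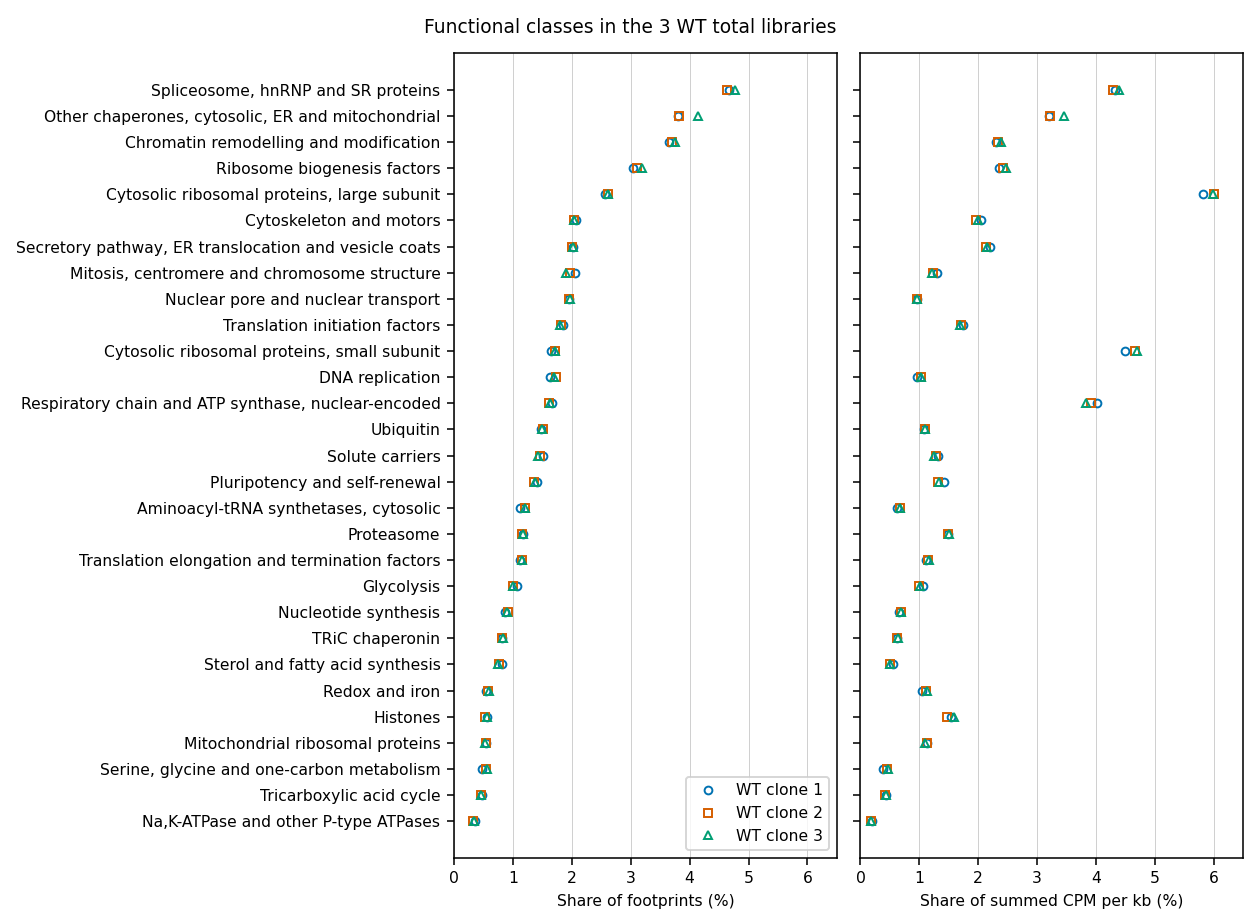
Share of WT footprints (percent of counts on nuclear-encoded transcripts) and share of summed density (percent of CPM per kb) in each functional class, 1 point for each clone. The spliceosome leads by footprints at 4.69%, and the large ribosomal subunit leads by density, with 5.82% to 6.0%.

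Footprints leaned to long and density to short coding sequences. Transcripts with a CDS of at most 500 nt were 7.87% of those past 2 CPM and held 5.42 ± 0.0509% of their footprints and 21.8% of their summed density. Those over 4000 nt were 7.96% of the transcripts and held 14 ± 0.280% of the footprints and 2.90% of the density. The median CDS was 1440 nt unweighted and 1704, 1734 and 1725 nt when each transcript was weighted by its footprints in clones 1, 2 and 3. Genes are no independent replicates, and as a description over 10333 transcripts the rank correlation of CDS length was -0.352 with density and 0.136 with CPM. Density has CDS length in its denominator, which the 2 measures share.

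The core pluripotency factors were read at high levels in every clone. Nanog had 633, 604 and 650 CPM in clones 1, 2 and 3, Pou5f1 had 467, 423 and 452 and Sox2 had 316, 302 and 293. Clone 1 was highest for Pou5f1 and Sox2 and clone 3 for Nanog, and the clones lay close together for each. Per length Nanog was highest of these at 736 CPM per kb, ahead of Pou5f1 at 449 and Sox2 at 339. The median of the core factors, 447 CPM, lay above 98.1% of the nuclear-encoded transcripts listed. Fewer cells of a type and fewer footprints per cell cannot be told apart in such bulk libraries.

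All 16 naive pluripotency genes were over 2 CPM. Zfp42 (Rex1), a marker of the naive state, had 957, 849 and 876 CPM in clones 1, 2 and 3, and Esrrb, an orphan nuclear receptor, had 542, 513 and 554. Tdgf1, the Nodal co-receptor Cripto, had 786, 614 and 612 CPM and the highest density of the list, 1480 CPM per kb. Klf4 stood at 223 CPM in clone 1 against 111 and 112 in clones 2 and 3, Tbx3 at 336 against 156 and 146, and Klf5 at 588 against 414 and 429. Dppa3 (Stella), in contrast, had 3.38 CPM in clone 1 and 11.4 and 9.73 in the others. Klf4, Tbx3 and Dppa3 were the 3 naive genes with over 1.5-fold between clones, and of the 16 genes 7 were highest and 8 lowest in clone 1. Summed over the list, clone 1 had 5058 CPM and clones 2 and 3 had 4292 and 4488.

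Pluripotency and self-renewal genes as a class held 1.38% of the footprints and were led by L1td1, an RNA-binding protein of stem cells, at 671 ± 17.3 CPM per kb, with Rif1 at 202 ± 22.8. Of the formative and primed epiblast genes 10 of 12 were over 2 CPM, among them Nodal, with 157, 172 and 186 CPM, and the de novo methyltransferases Dnmt3a and Dnmt3b, with 177 to 189 and 163 to 172. The transcription factor Zic2 had 125, 107 and 128 CPM, Foxd3 had 57.5, 56.2 and 60.1 and Lef1 had 58.0, 43.3 and 44.6. The other 2 of the list, Fgf5 (0, 0.525 and 0.290 CPM) and Fgf8 (0.705, 0.394 and 1.16), were below 2 CPM in every clone. Otx2 had 18.6, 36.1 and 20.2 CPM and was highest in clone 2.

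Markers of other lineages were mostly low. None of the 8 genes of the 2-cell-like state, 2 of 10 of mesoderm and primitive streak, 3 of 10 of neuroectoderm and 2 of 9 of trophectoderm were over 2 CPM in all clones. The defining Brachyury gene T had 0.282, 0.131 and 0 CPM, Sox1 had 1.13, 1.84 and 2.47 and Cdx2 had 0.564, 0.394 and 0.290. Of 10 fibroblast genes, which feeder cells would carry, 1 passed (Thy1, with 21.9, 12.9 and 8.86 CPM), the summed level was 30.0, 17.5 and 13.2 CPM, and the collagens Col1a1, Col1a2 and Col3a1 lay between 0 and 5.22 CPM. Tubb3 with 126, 109 and 97.4 CPM, and Tfap2c with 63.9, 86.1 and 76.4, accounted for most of the neuroectoderm and trophectoderm sums. Pax6, a transcription factor of neural progenitors, had 1.55 CPM in clone 1 and 18.5 and 19 in clones 2 and 3.

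Primitive endoderm genes, 3 of 9 over 2 CPM, summed to 93.8 CPM in clone 1 and to 23.9 and 34.3 in clones 2 and 3, and all 9 were highest in clone 1. Cubn, an endocytic receptor of that tissue, gave the largest part of the sum, with 50.9, 10.4 and 17.4 CPM. Its CDS is 10869 nt long, and its mean density of 2.43 CPM per kb was below Amn at 4.58 and Dab2 at 3.66. The defining transcription factors of the tissue, Gata6, Gata4 and Sox17, lay between 0.145 and 2.96 CPM. Their mean densities were 1.07, 1.03 and 0.616 CPM per kb. Eomes, of both mesoderm and trophectoderm, had 24.1, 7.48 and 7.84 CPM. Germ cell genes were the lineage list with the most members over 2 CPM, 9 of 10. They summed to 560, 424 and 381 CPM, and 8 of the 10 were highest in clone 1. Sycp3, of the meiotic chromosome axis, had 125, 105 and 111 CPM, Stra8, a driver of meiotic entry, had 87.7, 30.3 and 24.8, Ddx4 had 70.4, 44.9 and 35.4 and Dazl had 64.9, 30.6 and 32.1. The part of other cells in these sums was not tested.

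**Figure D3:**
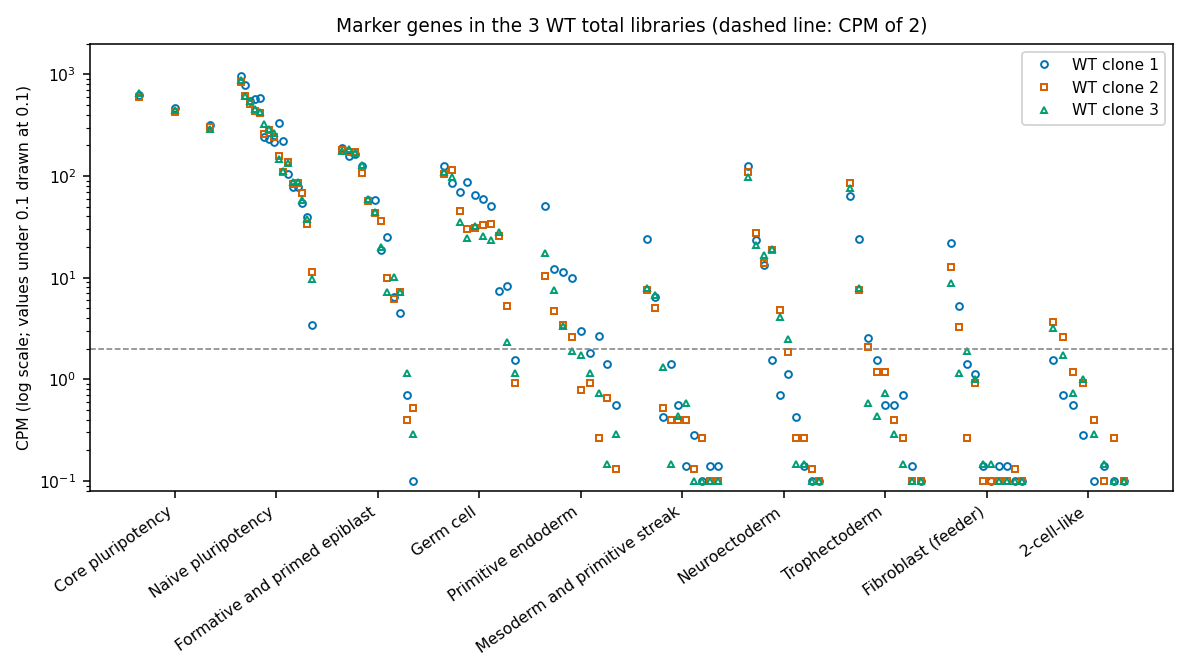
Footprint level (CPM, log scale, values under 0.1 drawn at 0.1) of marker genes by list, with 1 symbol for each WT clone and a dashed line at 2 CPM. The core factors Nanog, Pou5f1 and Sox2 lie between 293 and 650 CPM, and 1 of the 10 fibroblast and 9 of the 10 germ cell genes are over 2 CPM in all 3 clones.

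All 8 genes of DNA methylation had counts in every clone, at widely different levels. Uhrf1 and Dnmt1, which copy methylation at replication, had 748 and 742 CPM in clone 1, 899 and 887 in clone 2 and 869 and 839 in clone 3, and Dnmt3l had 522, 512 and 484. Tet1, which oxidises 5-methylcytosine, had 3.10 CPM in clone 1 and 423 and 419 in clones 2 and 3. Tet2 had 342 CPM in clone 1 and 224 and 236 in the others, and Tet3 stayed between 1.31 and 3.81 CPM. Clone 1 therefore held the lowest Tet1 and the highest Tet2 level of the 3.

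Most transcripts had close to the same level in the 3 clones, and most of the spread came from clone 1. The biological coefficient of variation, the relative spread between clones beyond counting noise, was 12.6% over the 3 clones. It was 4.98% without clone 1, 15.6% without clone 2 and 15.0% without clone 3. For 6471 transcripts with a mean of at least 20 CPM, the ratio of the highest to the lowest clone had a median of 1.15. It was above 1.5 for 490 of them and above 2 for 108 (1.67%), and among those 108 the clone farthest from the other 2 was clone 1 in 97, clone 2 in 4 and clone 3 in 7. Clones 2 and 3 differed over 2-fold in 6 transcripts, whereas clones 2 and 1 did so in 78 and clones 3 and 1 in 81. Within 1.5-fold lay 99.5% of the transcripts between clones 2 and 3, 94.8% between clones 2 and 1 and 93.9% between clones 3 and 1. Differences of clone 1 from the others had rank correlations of 0.0006 with the GC content and -0.0317 with the length of the CDS over 6469 transcripts.

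**Figure D4:**
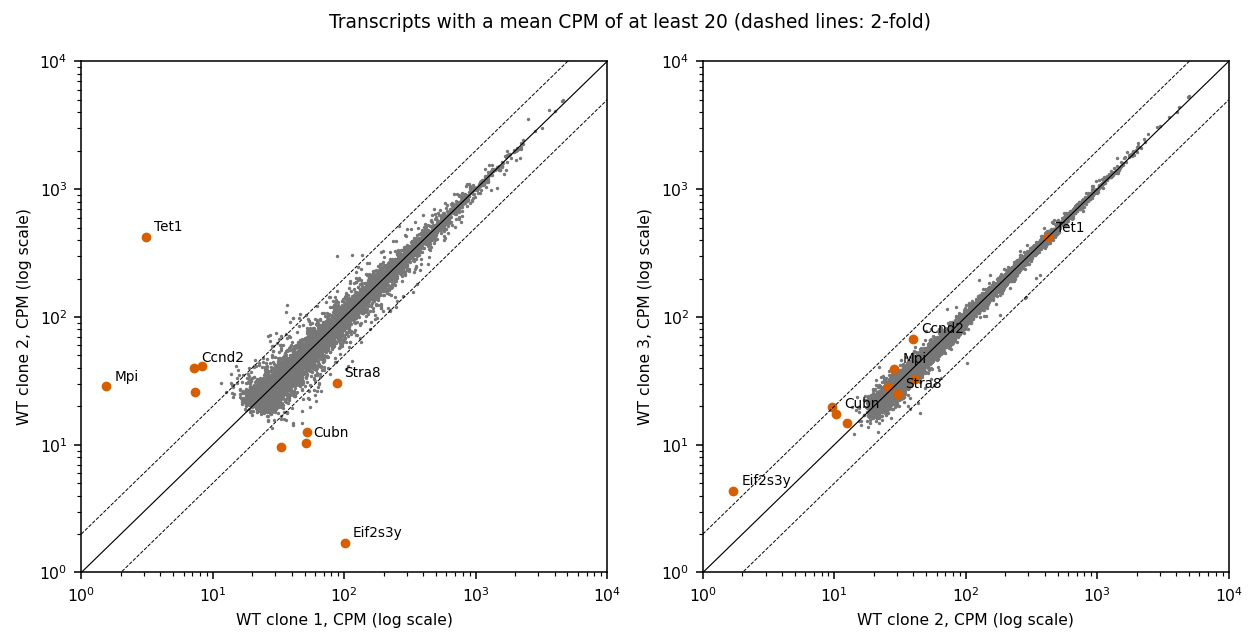
Levels (CPM, both axes on a log scale) of the 6471 transcripts with a mean of at least 20 CPM in clone 2 against clone 1 (left) and in clone 3 against clone 2 (right), with the 10 most variable in colour and dashed lines at 2-fold. Outside the lines lie 78 transcripts on the left and 6 on the right.

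Transcripts of the ribosome and of TRiC varied little between clones. Of the 66 RPs past the level of 20 CPM none exceeded 1.5-fold between clones, and the median ratio was 1.06 for the large and 1.05 for the small subunit. None of the 7 TRiC subunits (median 1.04) and none of the 37 initiation factors (median 1.08) did either. The median was 1.07 for the proteasome and 1.09 for the synthetases and for ribosome biogenesis factors, of which 2 of 102 exceeded 1.5-fold. Among solute carriers 16 of 89 (18.0%) exceeded 1.5-fold, and among the cytoskeleton genes 9 of 93, against 7.57% of all transcripts. RPs are also among the most deeply counted transcripts, and the part of depth in this difference was not tested.

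Clone 1 was the lowest or the highest for each of the 10 transcripts that varied most. After Tet1, the ratio was widest for Eif2s3y, the Y-linked copy of an initiation factor subunit, with 101, 1.71 and 4.36 CPM in clones 1, 2 and 3. Of the other Y-linked genes listed, Ddx3y had 7.33, 0.394 and 1.89 CPM and Uty 2.12, 0.394 and 0.145, while Kdm5d had 0 counts in each clone. Ccnd2, a cyclin of the early cell cycle, had 7.19, 39.9 and 67.7 CPM, and Mpi, a mannose phosphate isomerase, had 1.55, 28.6 and 39.5. Pmel had 8.32, 41.2 and 32.7 CPM, and Prdm1, a repressor that germ cell precursors need, had 7.33, 25.7 and 28.3. Bcorl1, a corepressor, was highest in clone 1 with 52.5 CPM against 12.5 and 14.8, as were Cubn and Stra8 above and Soga3 with 33.1, 9.58 and 19.9.

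The tagged clones, grown and profiled by the same protocol, split in part the same way. The protocol pooled the libraries of 1 replicate number after ligation, so that WT clone 1 shares a pool with clone 1 of each tagged line, and pool and clone cannot be told apart. Tet1 had 2.46, 414 and 404 CPM in the Rps27-FLAG clones and 1.99, 2.12 and 420 in the Rps27l-FLAG clones, so that clone 2 of the latter line was also low although it shares its pool with WT clone 2. Ccnd2 was low in the same 4 libraries as Tet1, with 4.67, 32.9 and 34.7 CPM and 4.76, 4.37 and 41.1. Eif2s3y was not, with 133, 143 and 0.638 CPM and 125, 114 and 0. Stra8 had 104, 39.7 and 28.9 CPM in the Rps27-FLAG clones and 109, 71.1 and 51.7 in the Rps27l-FLAG clones, highest in clone 1 of each line.

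**Figure D5:**
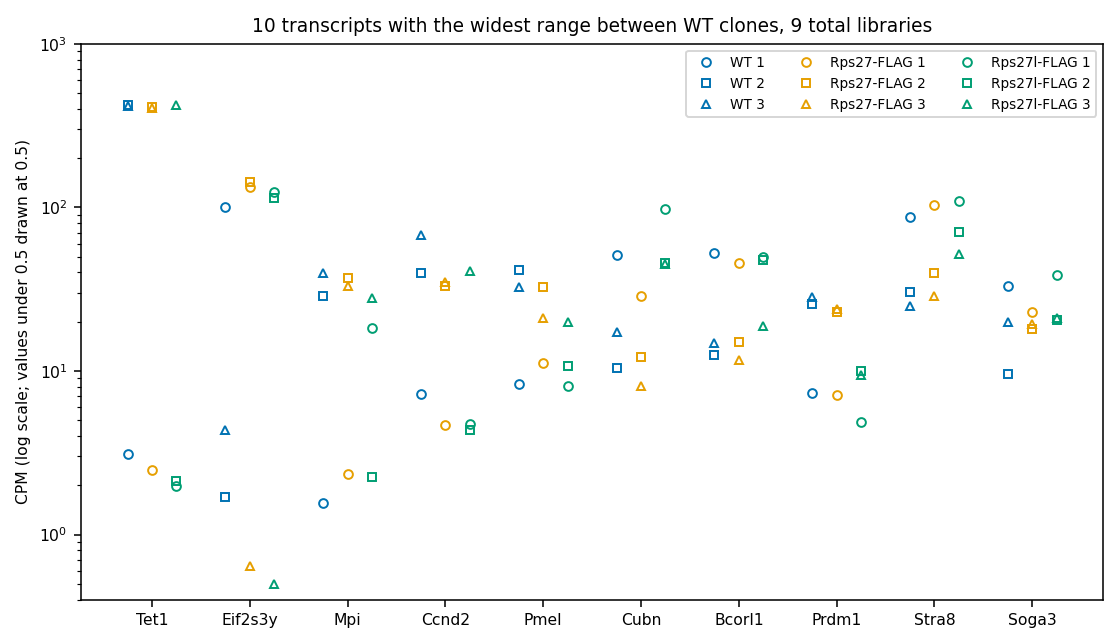
Levels (CPM, log scale, values under 0.5 drawn at 0.5) of the 10 transcripts with the highest ratio between WT clones, in the total libraries of the 3 WT, 3 Rps27-FLAG and 3 Rps27l-FLAG clones. Tet1 is at or below 3.10 CPM in clone 1 of each line and in Rps27l-FLAG clone 2, and between 404 and 423 CPM in the other 5.

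Of the 54 transcripts over 2-fold apart in WT clone 1 from each of the other WT clones, 27 were higher and 27 lower there. In the Rps27-FLAG line all 27 and all 27 lay on the same side in clone 1, with median log2 differences of 1.20 and -1.0. In the Rps27l-FLAG line 25 and 25 did, with medians of 0.52 and -0.79. Among all transcripts 55.9% were higher and 44.1% lower in clone 1 of the Rps27-FLAG line, and 53.8% and 46.2% in that of the Rps27l-FLAG line. Whether number and level go together was then tested over the 9 total libraries with edgeR's quasi-likelihood test, with the cell line as a covariate. Of 10085 transcripts 1239 (12.3%) differed between replicate numbers at a Benjamini-Hochberg adjusted p under 0.05. Without the libraries of number 1 there were 0, with 810 at an unadjusted p under 0.05, and without WT clone 1 there were 270.

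The WT libraries took part in that test, so it was repeated on the 6 tagged libraries, which leave them out. There 258 transcripts (2.56%) passed. Of the 10 transcripts that varied most in WT, 8 could be tested, and 6 of these passed (Tet1, Ccnd2, Cubn, Bcorl1, Prdm1 and Stra8), with edgeR adjusted p values from 0.0019 for Cubn to 0.0219 for Ccnd2. Pmel and Soga3 did not, with 0.0810 and 0.128. Because same-numbered clones of the 3 lines shared a library pool, the 6 tagged libraries are not independent of that pool.

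In the test over 9 libraries, 618 of the 1239 transcripts were higher and 621 lower in number 1 than in numbers 2 and 3 on average. The 5 largest differences upward were Rapgef3, Brdt, Esx1, Cubn and Alox15, and the 5 largest downward Tet1, Ccnd2, Spink1, Tmem92 and Fat2. In WT Rapgef3, a cAMP sensor, had 14.9, 4.20 and 2.76 CPM, Brdt, a bromodomain protein of the testis, had 12.3, 3.41 and 2.03, and the X-linked homeobox gene Esx1 had 15.1, 3.81 and 2.47. Spink1, a protease inhibitor, had 3.24, 16.1 and 19.2 CPM, Tmem92 had 3.38, 16.5 and 12.1, and Fat2, an atypical cadherin, had 4.51, 14.7 and 19.9. Each of these 6 was far apart in WT clone 1, which follows in part from their choice, since WT clone 1 was in the test that picked them. Of the transcripts that passed, 47 were over 2-fold higher and 40 over 2-fold lower in number 1.

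No transcript passed the test between the WT and the tagged clones in the design without a block. With edgeR's quasi-likelihood test over the 9 total libraries, 0 of 10085 transcripts (0%) passed an adjusted p of 0.05 between WT and the mean of both tagged lines, while 360 had an unadjusted p under 0.05. DESeq2 also gave 0 (233 unadjusted), as did voom with limma (365). With the replicate number as a block in edgeR there were 2, Enpp3 and Tfpi, both with an adjusted p of 0.00938, and 938 transcripts had an unadjusted p under 0.05. Without WT clone 1 and without the block 0 passed, but 1093 had an unadjusted p under 0.05. The count of 0 therefore does not show that WT and tagged clones were the same. Tfpi, an inhibitor of blood coagulation, had 75.2, 69.8 and 61.7 CPM in WT, 39.6, 46.5 and 30.3 in Rps27-FLAG and 44.6, 60.5 and 37.8 in Rps27l-FLAG, so that WT lay above all 6 tagged clones. Enpp3, an ectoenzyme that cleaves nucleotides, had 136, 306 and 316 CPM in WT, 136, 236 and 248 in Rps27-FLAG and 90.7, 186 and 184 in Rps27l-FLAG, and was lowest in clone 1 of each line. Grb10, an imprinted adaptor of insulin signalling, passed when Rps27l-FLAG clone 2 was left out. It had 446, 293 and 363 CPM in WT and 319, 319 and 336 in Rps27-FLAG, but 36.9, 318 and 33.7 in Rps27l-FLAG.

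The class shares were compared in the same libraries, with a test too coarse for a single class to pass. An exact two-sided permutation test of 3 against 6 libraries, over 84 arrangements with a smallest p of 0.0238, gave 0 of 29 classes after Benjamini-Hochberg adjustment. A single class at that smallest p has an adjusted p of 0.690, so that the count of 0 says nothing of stability. Mitochondrial RPs were the 1 class whose groups did not overlap, at 0.533 ± 0.00800% (n = 3) in WT and 0.552 ± 0.00989% (n = 6) in the tagged clones, with an exact p of 0.0238 and the adjusted p just given. RPs of the large subunit held 2.46% to 2.79% in the tagged clones around a WT mean of 2.59%, and those of the small subunit 1.59% to 1.82% around 1.69%. These ranges include the WT means, which does not show that the lines were the same.

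Shares of whole chromosomes were close between WT clones, with each autosome reported within 1.79% of its WT mean and X within 1.88%. Chromosome 18 is not reported here. The autosome limit was 3.45% when taken from the median ratio of single transcripts and 0.991% without clone 1. The median log2 ratio was positive in clone 1 on every reported autosome, from 0.00134 to 0.0489, and negative in clone 3 on each. The 3.45% therefore includes a shift that the reported autosomes share. Chromosome 3 was the reported autosome with the widest range. Y stood apart, with 0.0151% of the footprints in clone 1 and 0.00139% and 0.00184% in clones 2 and 3.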

How the data were processed

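The authors removed adapters with cutadapt 2.4, collapsed duplicates by molecular identifiers with UMI-tools 1.0.1 and aligned reads with Bowtie2 2.3.4.3 to GRCm38 (mm10) transcripts, keeping unique alignments, as the methods and the submitters' processing notes state. The deposited values are raw counts of ribosome A sites per CDS, without its first 15 and last 5 codons, with 0 per-sample columns unused. From them, CPM was computed without the 13 mitochondrially encoded transcripts, and density from CDS lengths of GENCODE M21. Tests used edgeR 4.0.16 with trimmed-mean normalization on 10085 transcripts (a CPM above 2 was required in 14 or more of all 15 libraries), with DESeq2 1.42.0 and limma 3.58.1 as alternatives, in R 4.3.3. The code was tested on simulated counts. Uniqueness of a CDS was computed from windows of its sequence against the listed transcripts.

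Named transcripts were the leading 20 by CPM and by density, the leading 3 of each class (some are not reported here), marker genes, the 10 most variable between WT clones, the 5 largest differences each way per test, and Rps27, Rps27l and Tmod3. Others, such as complex subunits, were added after their values were seen. The members and lists were chosen with earlier results of these data known. The protocol says that libraries of 1 replicate number were pooled, which pairs the clones by pool. Residuals of WT and tagged clones correlated at -0.155 to 0.795 for the same number (median 0.554, 6 pairs) and -0.697 to 0.526 for different ones (median -0.515, 12 pairs). Rps27l-FLAG clone 2 correlated at -0.155 with WT clone 2, of the same number, and at 0.259 with WT clone 1. The pairs share libraries, so that their correlations are not independent of each other. Amino acid composition was not analysed.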

Additional observations from a re-analysis of the deposited data

Results flagged for a closer look

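Mitochondrially encoded transcripts, which were left out of all levels above, held 0.636%, 0.581% and 0.648% of the counts in WT clones 1, 2 and 3, a mean of 0.622%. They were singled out because they carry signal outside the main measurement, far above the limit that a count of 0 allows. All 13 were counted in each clone. Subunit I of cytochrome oxidase, mt-Co1, had the most counts and the highest level per length, with 24.8%, 24.3% and 25.7% of the mitochondrially encoded counts, ahead of mt-Cytb with 11.5%, 13.9% and 13.5%. The 6 tagged total libraries lay between 0.462% and 0.704%, a range that includes the WT values.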

How the results depend on the processing

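Leaving out 1 WT clone moved the common spread, a coefficient of variation of 0.126, to between 0.0498 and 0.156. The 1239 transcripts that differed between replicate numbers became 2233 without the filter on low counts, 258 in the tagged libraries alone (an alternative chosen after seeing the data), 270 to 1024 without 1 WT clone and 0 to 2367 without 1 replicate number, of which 0 was without number 1. Without WT clone 1 it was 270, without clone 3 it was 719, and without number 3 it was 302. DESeq2 gave 865. Between WT and the tagged clones, 0 transcripts passed, against 2 with the replicate block and 0 to 1 when 1 library was left out. Classes held 50.6% of the summed density, 50.2% with the full CDS length and 51.4% with the length of the uniquely alignable windows (chosen after seeing the data). Single classes moved by over 1 SD in 18, 10 and 25 of 29 cases with the full length, a minimum of 150 nt and unique windows. The largest deviation of a reported autosome, 1.79%, was 3.45% as the median of ratios of single transcripts and 0.991% to 1.35% when 1 clone was left out (chosen after seeing the data). The 3.45% includes a shift that the reported autosomes share. The causes were not tested. With 3 clones of 1 line, differences near the spread between clones were not detectable, and transcripts that share sequence with others have only a lower bound.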

Other observations

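Among the 40 transcripts with the highest ratio between WT clones, several outside the named 10 belong to groups not yet described; these were chosen after their values were seen and were not tested as groups. Some genes of the extracellular matrix were highest in clone 1, whereas Fn1, as given above, was lowest there. Col4a1 and Col4a2, the paired chains of type IV collagen, had 107, 41.4 and 57.9 CPM and 61.3, 21.9 and 29.2 CPM in clones 1, 2 and 3, and Loxl2, an enzyme that crosslinks collagen, had 115, 45.4 and 44.0. In the Rps27-FLAG clones Col4a1 had 91.5, 47.2 and 46.5 CPM, and in the Rps27l-FLAG clones 114, 77.6 and 106.

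Id1, a target of BMP signalling, had 84.9, 44.1 and 34.7 CPM in the WT clones, and H1f0, the linker histone of slowly dividing cells, had 64.9, 30.1 and 22.7. Lowest in clone 1 were Sgk1, a kinase of ion transport control, with 87.4, 298 and 258 CPM, the dystrophin relative Utrn with 115, 306 and 297, and the imprinted gene Peg3 with 30.2, 74.4 and 86.7. In each of the tagged lines Id1 was highest and Sgk1, Utrn and Peg3 lowest in clone 1, which shares its library pool with WT clone 1. H1f0 and Loxl2 were highest in clone 1 of the Rps27-FLAG line but in clone 2 of the Rps27l-FLAG line. In the latter line H1f0 had 55.7, 58.0 and 29.8 CPM and Loxl2 had 51.0, 81.0 and 43.9. Pool and clone cannot be told apart.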
